A study of Mus musculus with 12 samples.

Results

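The interleukin 1 system was described here through 10 genes of mouse bone marrow macrophages, of 18467 gene symbols in the count table. They were the cytokines Il1b and Il18, the antagonists Il1rn and Il18bp, the receptor genes Il1r1, Il1rap and Il1r2, the inflammasome genes Casp1 and Nlrp3, and Gm37347, an unnamed gene model that lies inside Il1r2. The genes were listed by function, with earlier results of the same data known, and Gm37347 was chosen by its measured counts, which were lower with metastasis in general macrophages. For that reason the values of Gm37347 and Il1r2 in that comparison are given as a description with no test. All 10 genes passed the filter on low counts.

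The animals were female Albino B6 mice. E0771 breast cancer cells had been injected into the caudal artery of mice aged 8 weeks to give bone metastases, and healthy mice served as controls. The age is stated for the injected mice, and the age of the controls and the time from injection to sorting were not given in the sources used here, and no engineered allele or further agent was named. Marrow flushed from femur and tibia was sorted into general macrophages, positive for CD11b and F4/80, and a second population, positive for VCAM1, CD163 and CCR3, which the study's design text calls niche-specific although the sample titles call both sorts general. The groups were general macrophages from normal marrow, general macrophages from metastatic marrow, niche macrophages from normal marrow and niche macrophages from metastatic marrow, with 3 libraries each, taken from different mice by the design text, which does not say whether both sorts of a group came from the same animals. The libraries of niche macrophages from normal marrow are called A, B and C here, because their columns carry numbers other than those in the titles.

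Interleukin 1β is made as an inactive precursor, and caspase 1, switched on inside an inflammasome such as that built by NLRP3, cuts it and the related interleukin 18 into their active forms. Active interleukin 1β binds the receptor IL1R1, which signals together with the accessory protein IL1RAP, whereas the decoy receptor IL1R2 binds the cytokine without signalling. The receptor antagonist encoded by Il1rn occupies IL1R1 without signalling, and the binding protein encoded by Il18bp captures interleukin 18. Marrow monocytes, macrophages and neutrophils are known sources of these products.

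Gm37347 and Il1r2 are neighbours on the same strand, so their positions and sequences come first. In the mouse annotation GENCODE M21 (build GRCm38, the same assembly as mm10), Il1r2 (ENSMUSG00000026073) spans chr1:40074079-40125231 on the plus strand and has 4 transcripts. Gm37347 (ENSMUSG00000102975) spans chr1:40088511-40091581, also on the plus strand, as 1 exon of 3071 bp in the class that awaits experimental proof. It shares 0 bp with any Il1r2 exon and lies within introns of all 4 transcripts, the shortest of them 16086 bp long (chr1:40086303-40102388), starting 2208 bp after the exon before it and ending 10807 bp before the exon after it. The RefSeq start of Il1r2 at base 40086093 is 2418 bp upstream of Gm37347. None of the 4 GENCODE transcripts starts at that base. They start at 40074079, 40084698, 40084792 and 40085985, and only the last lies within the promoter shown here. The first and last 150 bases of Gm37347 are shown because the level of this stretch carried the difference below that passed its test, with the promoter of its host gene beside them (250 bases before to 50 after the RefSeq start, chr1:40085843-40086142, plus strand, GRCm38.p6). These sequences carry no capitals, since no motif is marked in them.
Gm37347 first bases (chr1:40088511-40088660): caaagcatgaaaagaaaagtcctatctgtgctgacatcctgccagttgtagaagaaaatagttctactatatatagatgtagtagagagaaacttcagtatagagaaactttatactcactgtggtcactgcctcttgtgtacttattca
Gm37347 last bases (chr1:40091432-40091581): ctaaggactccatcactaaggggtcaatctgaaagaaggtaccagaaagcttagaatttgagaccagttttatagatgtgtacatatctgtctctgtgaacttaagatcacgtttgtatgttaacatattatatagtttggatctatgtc
Il1r2 promoter: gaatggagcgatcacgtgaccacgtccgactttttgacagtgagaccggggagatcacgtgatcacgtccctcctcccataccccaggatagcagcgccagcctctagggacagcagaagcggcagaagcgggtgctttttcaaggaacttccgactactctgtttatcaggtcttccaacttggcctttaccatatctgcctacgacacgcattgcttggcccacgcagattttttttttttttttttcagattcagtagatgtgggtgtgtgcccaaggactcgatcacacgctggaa
The polyadenylation signal AATAAA was found in Gm37347 on its own strand, with 1 match that begins at base 1318 of the 3071.

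**Figure D1:**
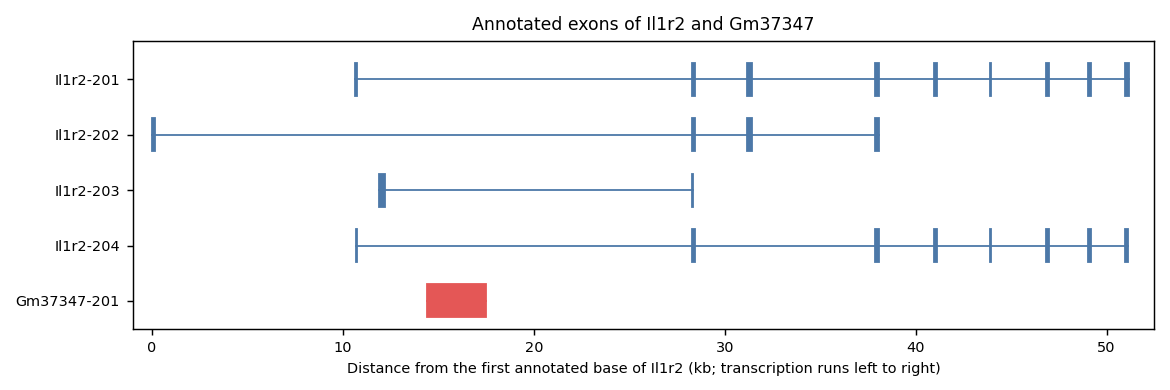
Exons of the 4 annotated Il1r2 transcripts and of Gm37347 (boxes) against the distance in kilobases from the first annotated base of Il1r2, with introns as thin lines. Gm37347 lies between exons and shares 0 bp with them.

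The promoters of Il1b and Il1rn are shown because these genes encode the cytokine and its natural antagonist. They come from RefSeq (GRCm38.p6), where 9 of the 10 genes had an entry. The Il1b promoter is chr2:129371090-129371389 on the minus strand, and the Il1rn promoter is chr2:24336610-24336909 on the plus strand. Capitals mark TATAAA (the TATA box) in Il1b, and in Il1rn a match on the opposite strand to TGACTCA (the AP-1 motif) followed by a match to a kappaB motif (GGGA, any 4 bases, then CC).
Il1b promoter: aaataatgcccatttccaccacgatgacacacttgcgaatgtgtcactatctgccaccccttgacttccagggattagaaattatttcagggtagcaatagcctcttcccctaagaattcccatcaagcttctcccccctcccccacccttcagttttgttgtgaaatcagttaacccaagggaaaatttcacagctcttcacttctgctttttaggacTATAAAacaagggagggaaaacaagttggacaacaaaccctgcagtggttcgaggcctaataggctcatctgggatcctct
Il1rn promoter: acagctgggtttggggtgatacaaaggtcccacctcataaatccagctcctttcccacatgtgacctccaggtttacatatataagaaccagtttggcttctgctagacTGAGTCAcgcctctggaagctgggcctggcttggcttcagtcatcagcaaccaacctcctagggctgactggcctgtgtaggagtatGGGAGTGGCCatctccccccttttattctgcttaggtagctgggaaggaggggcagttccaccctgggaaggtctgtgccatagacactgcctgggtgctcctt
The TATA box of Il1b begins at -31 relative to the start, and the matches in Il1rn begin at -141 and -54. With both strands searched, TATAAA occurred in 13.6% of 32851 mouse promoters of the same length, TGACTCA in 5.2% and the kappaB motif in 20.7%. Further matches among the 10 genes were TATAAA in Il18 and in another Il1rn promoter, and the kappaB motif in Nlrp3 and Il1rap. A match is a run of letters and not a measured site, and no binding was measured in these samples.

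The libraries held 13687945 to 30332417 counts, and levels are given as CPM, the counts scaled to a common library total, after edgeR's TMM adjustment. Fold changes are given as log2 differences with their standard error (SE). In the CPM unit 3 counts, the most that a count of 0 allows, correspond to 0.109 to 0.243 CPM depending on the library, for counting error only. The genes of the second gate were higher in the sort made with it. Vcam1, an adhesion molecule, was at 63.4 ± 20.6 CPM (SD, n = 3) in normal general macrophages and at 2161 ± 81.0 CPM in normal niche macrophages, and Cd163 and Ccr3 were likewise higher in the niche sort by edgeR's test in both states of the marrow. Both sorts also held neutrophil transcripts, with S100a8 at 2802 to 3716 CPM in normal general macrophages and 1157 to 1798 CPM in normal niche macrophages. Adgre1, the F4/80 gene, was at 103 to 145 CPM in normal general macrophages and at 343 to 589 CPM in normal niche macrophages, a log2 difference of 1.96 with an edgeR adjusted p of 0.00246, although F4/80 was a gate of the general sort. B and plasma cell markers summed to 147 to 219.5 CPM in normal general and 933 to 1895 CPM in normal niche macrophages, and erythroid markers to 12.8 to 113 and 739 to 1192 CPM. The summed level of 15 neutrophil markers was 24686 to 26049 CPM in normal general macrophages, 17644 to 29194 in metastatic general macrophages, 12286 to 15552 in normal niche macrophages and 13411 to 14192 in metastatic niche macrophages. Of these markers 7 were lower in niche than in general macrophages of normal marrow and 6 in metastatic marrow by edgeR's test. The summed level of 11 monocyte markers was 12622 to 13491 CPM in normal general, 17427 to 19306 in metastatic general, 4732 to 6132 in normal niche and 8473 to 10942 in metastatic niche macrophages. The 18 macrophage markers, which include the gate genes of both sorts, summed to 1159 to 1311 CPM in normal general macrophages. In normal niche macrophages they summed to 8019 to 9691 CPM. These sums lay below the neutrophil sum in both groups, and below the monocyte sum in normal general macrophages only. Sums over different genes do not give shares of cells. In bulk RNA, fewer cells of a type and less RNA per cell cannot be told apart.

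Differences were tested with edgeR's quasi-likelihood test on 4 group means over all 12 libraries, and p-values were adjusted over 12882 genes with a threshold of 0.05. Between niche and general macrophages of normal marrow 1 of the 10 genes passed, Gm37347, which was lower in niche macrophages, beside a background of 2.47% of all tested genes. Gm37347 was listed through a comparison that uses the same normal general libraries, so nothing is read from this count against the background. DESeq2 called 4 there, with Il1b, Il1rn and Il18 added, beside 17.5% of all genes by the same tool, and limma-voom called 1 beside 1.44%. At an unadjusted p under 0.05 edgeR had 4 of 10, beside 19% of all tested genes. In metastatic marrow 0 of 10 passed in edgeR, where the background was 0.831%. At an unadjusted p under 0.05 there were 2 of 10 (8.6% of all tested genes), and DESeq2 and limma-voom called 0 (5.08% and 1.38% of all genes).

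With metastasis in niche macrophages 0 of 10 passed in edgeR (background 0.00776%), and 1 of 10 was at an unadjusted p under 0.05, close to the 12.7% of all tested genes. DESeq2 called 1 of 10 there, close to its 10.6% over all genes, and limma-voom called 0 (0.0854%). With metastasis in general macrophages 0 of the 8 genes tested passed in edgeR (background 0.0155%), with 1 at an unadjusted p under 0.05 (5.12% of all tested genes). DESeq2 and limma-voom called 0 of these 8, beside 1.55% and 0.179%. The difference between the effects of metastasis in the 2 populations was called for 0 of 8 genes in edgeR (background 0%), with 1 at an unadjusted p under 0.05 (7.89% of all tested genes). It was also called for 0 of 8 in DESeq2, beside 4.6%, and in limma-voom, beside 0%.

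Il1b, the gene of interleukin 1β, was highest in general macrophages of normal marrow and lowest in the niche sort. In normal general macrophages it was at 123, 156 and 197 CPM, and in metastatic general macrophages at 27.2, 75.7 and 82.0 CPM. The normal niche libraries A, B and C held 45.7, 0.497 and 30.6 CPM, and the metastatic niche libraries held 12.9, 14.2 and 20.2 CPM. The general libraries thus lay above the niche libraries in both states of the marrow, without overlap, and the general metastatic libraries lay below the general normal ones. Normal library B stood apart from its group with 10 counts, while the metastatic niche libraries were close together (15.8 ± 3.90 CPM, SD, n = 3).

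Against this spread the differences in Il1b did not pass in edgeR. The log2 difference from general to niche macrophages was -2.63 ± 0.91 (SE) in normal marrow, with an edgeR adjusted p of 0.162 and a DESeq2 adjusted p of 0.0314. It was -3.33 without library A, -2.05 without library B and -4.54 with limma-voom. In metastatic marrow the difference was -1.97 ± 0.89, with an edgeR adjusted p of 0.557. With metastasis the log2 difference was -1.36 ± 0.87 in general macrophages (edgeR adjusted p 1.00) and -0.70 ± 0.86 in niche macrophages (edgeR adjusted p 0.876). The value in niche macrophages turned to 0.0055 without library A and to 1.23 with limma-voom, and was -1.28 without library B. Of the 15 neutrophil markers 13 in normal and 14 in metastatic marrow also had lower levels in the niche sort, with log2 differences for Ly6g of -1.37 in normal and -1.55 in metastatic marrow (edgeR adjusted p 0.0131 and 0.00917) and for Cxcr2 of -0.91 and -1.23 (edgeR adjusted p 0.0956 and 0.0361). Of the 11 monocyte markers all in normal and 9 in metastatic marrow had lower levels there too, and 6 and 4 of them passed edgeR's test, with log2 differences for Ccr2 of -2.57 in normal and -2.99 in metastatic marrow (edgeR adjusted p 7.76e-05 and 2.14e-05) and for Ly6c2 of -1.78 and -1.75 (edgeR adjusted p 3.81e-04 and 7.84e-04). The part of these markers in the Il1b values was not tested.

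Il1rn, the gene of the interleukin 1 receptor antagonist, was at 193, 408 and 272 CPM in general macrophages of normal marrow and above all libraries of metastatic general macrophages, at 93.3, 136 and 70.8 CPM. Niche macrophages of normal marrow held 138, 99.4 and 99.3 CPM, which is below every normal general library. In metastatic niche macrophages it was at 188, 46.2 and 113 CPM, a range that covers the other niche libraries. So the normal general libraries stood above the rest, with metastatic niche library 1 next to them, and the remaining groups overlapped. The log2 difference with metastasis in general macrophages was -1.54 ± 0.45 (unadjusted p 0.00282, edgeR adjusted p 0.944), and in niche macrophages it was 0.04 ± 0.44 (edgeR adjusted p 0.995). The difference between these effects was 1.58 ± 0.63 on the log2 scale, with an edgeR adjusted p of 0.584. From general to niche macrophages Il1rn had a log2 difference of -1.38 ± 0.45 in normal marrow, with an edgeR adjusted p of 0.130. In metastatic marrow this was 0.21 ± 0.44 (edgeR adjusted p 1.00), and it turned to -0.34 without niche metastatic library 1 and to -0.0061 without general metastatic library 3.

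The ratio of Il1rn to Il1b counts sets the antagonist against the cytokine within 1 library. It was 1.58, 2.61 and 1.38 in normal general macrophages and 3.43, 1.80 and 0.864 in metastatic general macrophages. In niche macrophages it was 3.02, 199.9 and 3.24 in normal marrow, the second of these from the library with 10 Il1b counts, and 14.6, 3.24 and 5.59 in metastatic marrow. Each niche library of metastatic marrow therefore had a higher ratio than at least 2 of the 3 metastatic general libraries, and every normal niche library had a higher ratio than every normal general library. Per kilobase of exon the ratio was 0.543, 0.898 and 0.477 in normal general macrophages, so count ratios above 1 there do not mean a higher level of the antagonist. The order of the libraries is the same on that scale. These ratios are a description with no test.

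**Figure D2:**
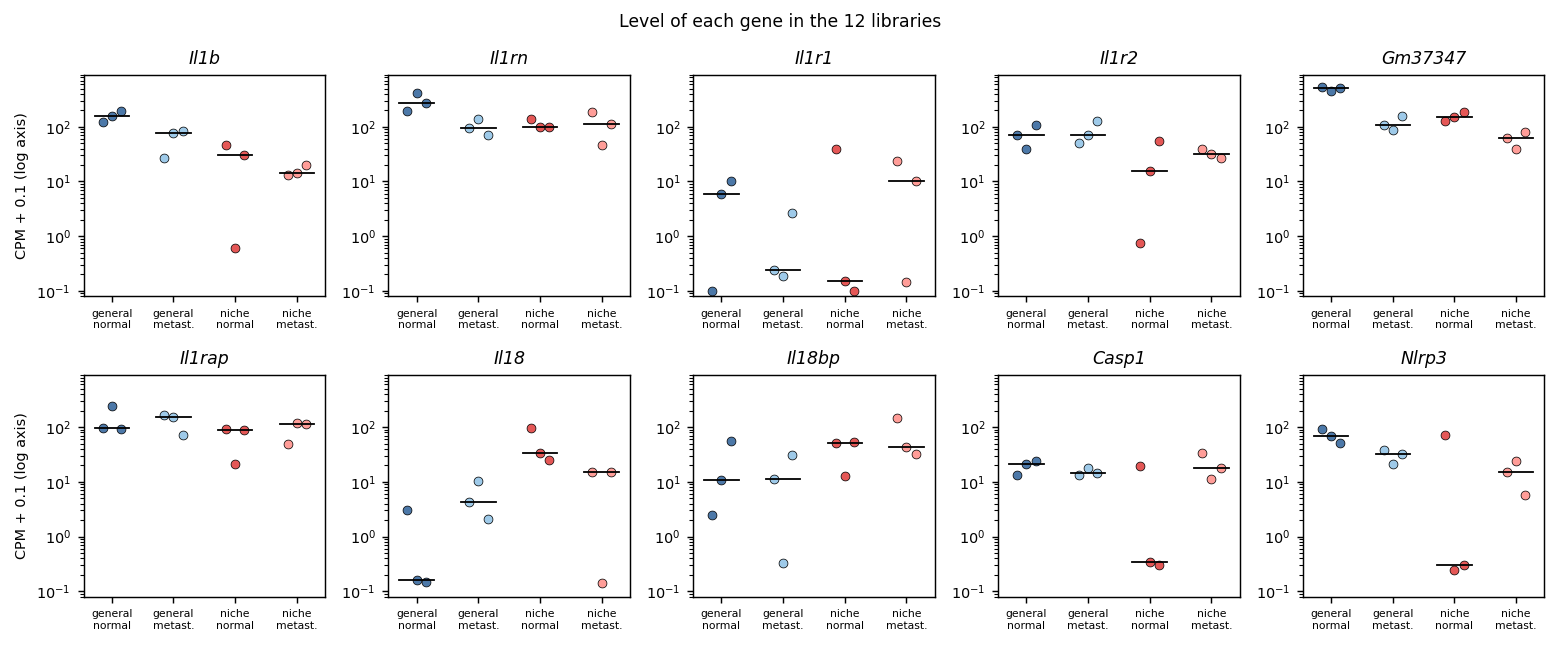
Level of each of the 10 genes in the 12 libraries, as TMM-scaled CPM plus 0.1 on a log axis, with a point for each library and a line at the median of each group. Gm37347 lies between 446 and 541 CPM in normal general macrophages and at or below 187 CPM elsewhere, while Casp1 and Nlrp3 have niche libraries of normal marrow far below the other points.

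Il18, the cytokine that shares the caspase 1 step, was highest in niche macrophages of normal marrow. General macrophages of normal marrow held 2.95, 0.0593 and 0.050 CPM, the last 2 of them at 1 count each, and metastatic general macrophages held 4.20, 10.1 and 1.98 CPM. Niche macrophages of normal marrow held 95.2, 33.0 and 24.8 CPM, and metastatic niche macrophages held 15.1, 0.0437 and 14.7 CPM. The normal niche libraries were above all other libraries, and metastatic niche library 2 was down to 1 count. From general to niche macrophages of normal marrow the log2 difference was 5.64 ± 2.08, with an unadjusted p of 0.0139 and an edgeR adjusted p of 0.194. In metastatic marrow the log2 difference was 0.88 ± 1.72 (edgeR adjusted p 1.00), and it turned to -0.82 with limma-voom. With metastasis it was 2.41 ± 1.80 in general macrophages (edgeR adjusted p 1.00) and -2.35 ± 1.79 in niche macrophages (edgeR adjusted p 0.644). The difference between those effects was -4.76 ± 2.54 (edgeR adjusted p 0.641). Without general normal library 1, the only one of its group above 1 count of Il18, the difference between the populations in normal marrow was 9.72, that with metastasis in general macrophages 6.50, and the difference between the effects -8.85. Macrophage markers were also higher in the niche sort, with 18 of them summing to 1159 to 1311 CPM in normal general, 895 to 1009 in metastatic general, 8019 to 9691 in normal niche and 3384 to 6584 in metastatic niche macrophages. That list holds Vcam1, Cd163 and Ccr3, the gate genes of the niche sort, so part of its higher sum was set by the sort. Their means in normal niche macrophages were 2161, 795 and 551 CPM. B and plasma cell and erythroid markers were higher in the niche sort as well, as given above. With metastasis the macrophage sum was lower in both populations. The mean of Il18 was higher with metastasis in general macrophages (1.02 to 5.43 CPM) and lower in niche macrophages (51.0 to 9.98 CPM). The part of these cells in the Il18 values was not tested.

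Il18bp, which encodes the soluble protein that captures interleukin 18, varied widely within each group. It was at 2.34, 10.6 and 55.7 CPM in normal general macrophages and at 10.98, 0.226 and 31.0 CPM in metastatic general macrophages. In niche macrophages it was at 50.6, 12.5 and 52.4 CPM in normal marrow and at 146, 42.6 and 31.7 CPM in metastatic marrow. Niche and general libraries overlapped in normal marrow, while all metastatic niche libraries lay above the metastatic general ones. The log2 difference from general to niche macrophages of metastatic marrow was 2.39 ± 1.30 (edgeR adjusted p 0.670), and in normal marrow it was 0.75 ± 1.24 (edgeR adjusted p 0.851). The value in metastatic marrow ran from 1.4 without niche library 1 to 3.70 without general library 3, and that in normal marrow was 2.58 without general library 3. With metastasis it was -0.70 ± 1.24 in general macrophages, which turned to 1.13 without normal library 3, and 0.93 ± 1.25 in niche macrophages, with edgeR adjusted p values of 1.00 and 0.891.

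The receptor genes differed in how much of them was present. Il1r1, the signalling receptor, was at 0, 5.87 and 10.2 CPM in normal general macrophages and at 0.146, 0.0904 and 2.6 CPM in metastatic general macrophages. It was at 38.4, 0.0497 and 0 CPM in normal niche macrophages and at 23.3, 0.0437 and 10.1 CPM in metastatic niche macrophages. Each group thus mixed libraries at or below the level of 3 counts with libraries above it. Its log2 differences carried standard errors of 2.61 to 2.88 and an edgeR adjusted p of at least 0.892, and the value from general to niche macrophages in normal marrow turned from 1.26 to -7.44 without niche library A. Il1r1 lies 99848 bp downstream of Il1r2.

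Il1rap, the accessory chain that IL1R1 needs to signal, was detected in every library. It was at 94.9, 239 and 93.8 CPM in normal general macrophages and at 169, 151 and 70.7 CPM in metastatic general macrophages. In niche macrophages it was at 93.4, 21.5 and 87.5 CPM in normal marrow and at 49.6, 119.7 and 113 CPM in metastatic marrow. The normal niche libraries lay just below the normal general ones, with 93.4 against 93.8 CPM at the border, and the other groups overlapped. The log2 difference from general to niche macrophages was -1.08 ± 0.56 in normal marrow and -0.47 ± 0.55 in metastatic marrow, with edgeR adjusted p values of 0.291 and 1.00. With metastasis it was -0.13 ± 0.55 in general and 0.48 ± 0.55 in niche macrophages, with edgeR adjusted p values of 1.00 and 0.852. Without general normal library 2 the value between the populations in normal marrow was -0.48. The value with metastasis in general macrophages turned to 0.47 without that library and to 0.16 without general metastatic library 3.

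Il1r2, the decoy receptor, was at 70.7, 39.4 and 108 CPM in normal general macrophages and at 49.8, 71.1 and 128 CPM in metastatic general macrophages. The normal niche libraries A, B and C held 0.649, 15.8 and 55.1 CPM, and the metastatic niche libraries held 38.8, 31.2 and 26.2 CPM. The general groups overlapped with each other, and the metastatic niche libraries lay below every metastatic general library. Library A of the normal niche group held 8 counts of Il1r2 and was the lowest of all. The log2 difference from general to niche macrophages was -1.61 ± 0.94 in normal marrow and -1.37 ± 0.93 in metastatic marrow, with edgeR adjusted p values of 0.353 and 0.870. The value in normal marrow ran from -3.13 without library C to -1.02 without library A. With metastasis in niche macrophages it was 0.43 ± 0.92 (edgeR adjusted p 0.959), and in general macrophages the fitted value was 0.19.

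Gm37347, inside the intron of Il1r2, was lower in the niche sort, as its host was by group means, and was also lower with metastasis. The host's fitted differences with metastasis were small and rested on single libraries: 0.19 in general macrophages turned to -0.28 without general metastatic library 3 and to -0.10 without general normal library 2, and 0.43 in niche macrophages turned to -0.16 without library A. General macrophages of normal marrow held 541, 446 and 503 CPM, and metastatic general macrophages held 107, 85.4 and 154 CPM. The niche libraries of normal marrow held 129, 152 and 187 CPM, and those of metastatic marrow held 61.8, 38.9 and 81.5 CPM. Libraries of 1 group were close to each other, and normal libraries lay above metastatic ones in both populations without overlap. The group means were 497 ± 48.2, 116 ± 35.3, 156 ± 29.5 and 60.7 ± 21.4 CPM in that order (SD, n = 3 each).

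The level of Gm37347 was 3.18-fold lower in niche than in general macrophages of normal marrow, a log2 difference of -1.67 ± 0.33 with an edgeR adjusted p of 0.00744, and all 3 niche libraries lay below all 3 general ones. That comparison shares the normal general libraries with the one through which the gene was listed, so it is not independent of the choice. In metastatic marrow, which shares the metastatic general libraries with it, the log2 difference was -0.93 ± 0.32 (unadjusted p 0.00976, edgeR adjusted p 0.399). With metastasis in niche macrophages, where neither group belongs to the listing comparison, the level was 2.57-fold lower, a log2 difference of -1.36 ± 0.33 with an unadjusted p of 5.12e-04 and an edgeR adjusted p of 0.174. DESeq2 gave an adjusted p of 0.00111 for that difference. In general macrophages the mean was 4.3-fold lower with metastasis, which is the difference that led to the listing.

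Neutrophil markers moved in part with Gm37347. Of the 15 markers 2 had a positive log2 difference from general to niche macrophages in normal marrow and 1 in metastatic marrow, whereas with metastasis 5 of 15 were positive in general and 8 of 15 in niche macrophages. Ly6g was at 516 ± 31.1, 320 ± 88.2, 199.7 ± 19.6 and 109.7 ± 36.8 CPM, and Cxcr2 at 413 ± 21.4, 235 ± 46.1, 219 ± 25.1 and 99.8 ± 23.9 CPM, in normal general, metastatic general, normal niche and metastatic niche macrophages (SD, n = 3 each). S100a8 and S100a9 differed from these, with higher means in metastatic than in normal niche macrophages. S100a8 was at 3310 ± 465.5, 2726 ± 695, 1428 ± 332 and 1704 ± 200.5 CPM, and S100a9 at 591 ± 103, 698 ± 196, 259.9 ± 115 and 334 ± 47.1 CPM in the same order (SD, n = 3 each). Ly6g had log2 differences with metastasis of -0.69 in general and -0.86 in niche macrophages (edgeR adjusted p 0.944 and 0.381), and Cxcr2 had -0.81 and -1.14 (edgeR adjusted p 0.944 and 0.190). The monocyte gene Ccr2 was at 1572 ± 127, 1166 ± 416, 264 ± 67.4 and 147 ± 55.7 CPM in the same order, and with metastasis 6 of the 11 monocyte markers had a positive log2 difference in each population. The part of neutrophil and monocyte RNA in the Gm37347 values was not tested.

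The ratio of Gm37347 to Il1r2 counts showed the separation of the pair within each library. It was 7.66, 11.3 and 4.66 in normal general macrophages and 2.15, 1.20 and 1.20 in metastatic general macrophages. It was 198, 9.67 and 3.40 in normal niche macrophages, the first value from library A with 8 counts of Il1r2, and 1.59, 1.25 and 3.11 in metastatic niche macrophages. Every normal library therefore had a higher ratio than every metastatic library of the same population. In general macrophages this restates the choice of Gm37347, and in niche macrophages the border lay between 3.40 and 3.11. Over the 12 libraries the Pearson correlation of log2(CPM + 1) between the genes was 0.25, given as a description since the libraries share their groups and scaling. Whether the counting used strand was not given in the sources used here. Both genes lie on the plus strand, so strand would not separate unspliced Il1r2 RNA that covers the intron from RNA of Gm37347, and the part of such RNA was not tested.

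**Figure D3:**
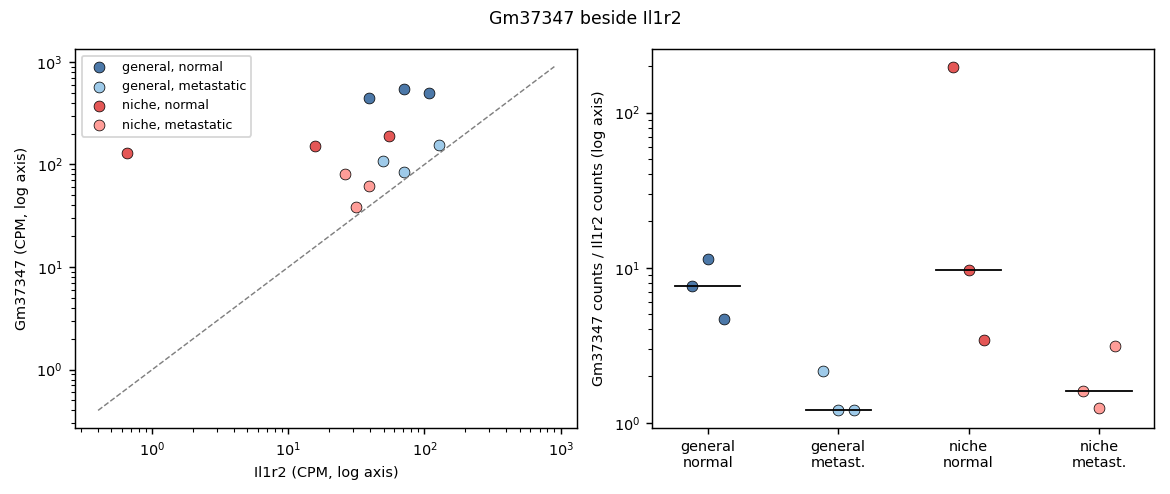
Left, level of Gm37347 against level of Il1r2 in the 12 libraries on log axes (TMM-scaled CPM), with a dashed line where the CPM are equal. CPM are not scaled to exon length. Per kilobase the ratio was below 1 in metastatic general libraries 2 (0.746) and 3 (0.748) and metastatic niche libraries 1 (0.988) and 2 (0.775). Right, ratio of Gm37347 to Il1r2 counts by group on a log axis, with normal libraries from 3.40 to 198 and metastatic ones from 1.20 to 3.11, where the separation in general macrophages restates the choice of Gm37347.

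Casp1, the protease that activates both cytokines, was at 13.2, 21.5 and 23.6 CPM in normal general macrophages and at 13.4, 17.8 and 14.7 CPM in metastatic general macrophages. The normal niche libraries A, B and C held 19.4, 0.249 and 0.201 CPM, or 239, 5 and 4 counts, while the metastatic niche libraries held 33.4, 11.2 and 17.6 CPM. Libraries B and C were the lowest of all 12, and the other groups overlapped. Its log2 differences were -1.55 ± 1.61 and 0.44 ± 1.58 from general to niche macrophages in normal and metastatic marrow (edgeR adjusted p 0.692 and 1.00). With metastasis they were -0.35 ± 1.57 in general and 1.65 ± 1.61 in niche macrophages (edgeR adjusted p 1.00 and 0.786). Without library A the value between the populations in normal marrow was -6.38 and that with metastasis in niche macrophages 6.48. The value between the populations in metastatic marrow turned to -0.0909 without niche metastatic library 1.

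Nlrp3, the sensor that builds the inflammasome, was low in the same libraries. It was at 91.2, 69.9 and 51.0 CPM in normal general macrophages and at 37.6, 21.5 and 31.8 CPM in metastatic general macrophages. The normal niche libraries A, B and C held 72.6, 0.149 and 0.201 CPM, or 895, 3 and 4 counts, and the metastatic niche libraries held 14.9, 23.9 and 5.65 CPM. All metastatic general libraries lay below the normal general ones, and the normal niche group held both a library in the general range and libraries near 0. The log2 difference from general to niche macrophages of normal marrow was -1.54 ± 1.41 (edgeR adjusted p 0.632). Without library A it was -8.60, with an edgeR adjusted p of 0.00153. In that fit 2 of the 10 genes passed (Gm37347 and Nlrp3), beside 307 of 14250 genes tested. With metastasis it was -1.22 ± 1.4 in general macrophages (edgeR adjusted p 1.00), and in niche macrophages -0.71 ± 1.39 (edgeR adjusted p 0.949), which turned to 6.34 without library A.

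Such jumps between libraries of 1 group were common in the table. Among sets of 1 gene in 1 group with a library over 100 counts, another library held 5 counts or fewer in 7 of 38 sets of the 10 genes (18.4%) and in 13470 of 44063 sets of all tested genes (30.6%). The 7 sets were Il1r1 in 3 groups, Casp1 and Nlrp3 in normal niche macrophages, Il18 in metastatic niche macrophages and Il18bp in metastatic general macrophages. Il1b, Il1rn, Il1r2, Il1rap and Gm37347 had none. In normal niche macrophages, however, Il1b ran from 10 to 610 counts and Il1r2 from 8 to 1097, just above that cut.

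**Figure D4:**
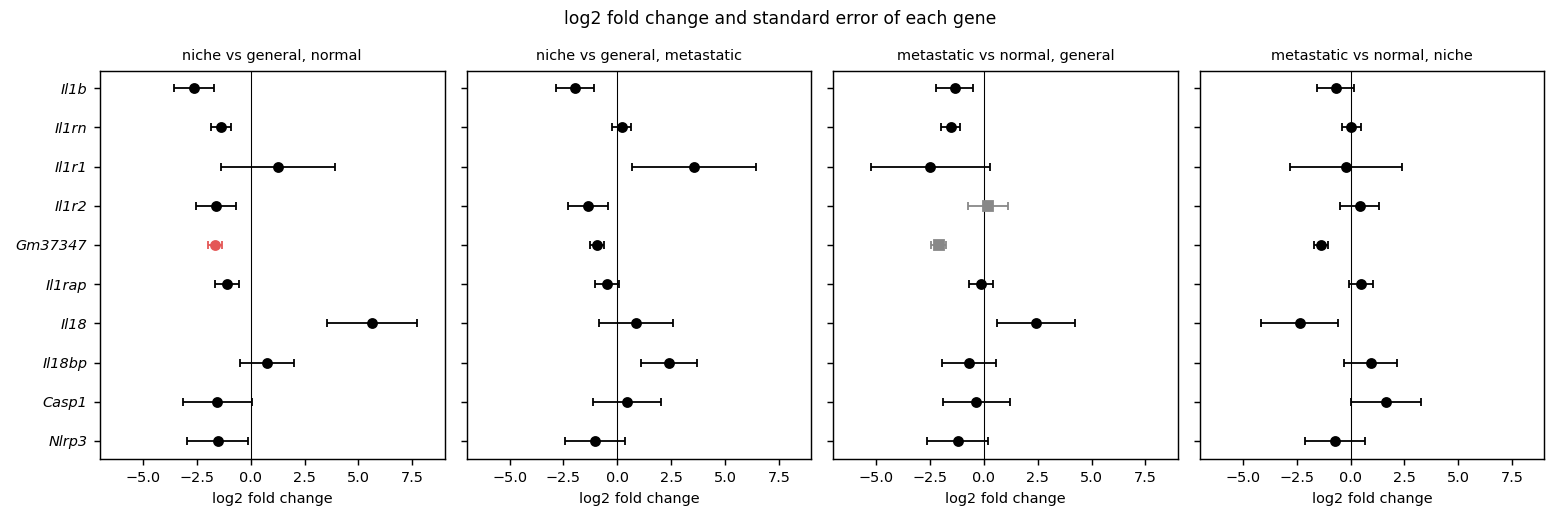
Log2 difference (fold change) of each of the 10 genes in the 4 comparisons, with bars for the standard error. Red points passed edgeR's adjusted p threshold of 0.05, which is Gm37347 between niche and general macrophages of normal marrow, and grey squares are described only.

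Niche and general libraries of normal marrow did not overlap for 5 of the 10 genes (Il1b, Il1rn, Gm37347 and Il1rap lower and Il18 higher in the niche sort), beside a background of 18.8% of all tested genes. In metastatic marrow 4 genes did not overlap (Il1b, Il1r2 and Gm37347 lower and Il18bp higher), beside 17.2%. With metastasis, Il1b, Il1rn and Nlrp3, and Gm37347 by its choice, lay lower without overlap in general macrophages, where the background was 12.9%, and Gm37347 and Il18 in niche macrophages, where it was 12.7%. The median log2 difference of the 10 genes was -1.46 from general to niche macrophages in normal marrow, beside 0.19 for all tested genes. In metastatic marrow it was -0.13 beside 0.04. The medians with metastasis were -0.96 in general macrophages, beside -0.01, and -0.08 in niche macrophages, beside -0.17. The comparisons share libraries, so these medians are not independent of each other. The medians and the counts without overlap include Gm37347, which was chosen by its lower counts with metastasis in general macrophages. In that comparison the median also includes Il1r2, which is only described there. For the comparisons that use general libraries, nothing is read from these values against all tested genes.

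Levels can be compared between genes only per length, here as CPM per kilobase of exon. In normal general macrophages Gm37347 led with 162, followed by Il1b with 83.2, Il1rn with 52.6 and Il1r2 with 38.1, and Il18 and Il1r1 were last with 0.990 and 0.842. In metastatic general macrophages the leading genes were Il1r2 with 43.5, Gm37347 with 37.6 and Il1b with 32.3. In normal niche macrophages Gm37347 with 50.9 and Il18 with 49.4 led, ahead of Il1rn with 20.3, and the Il18 libraries spanned 24.1 to 92.3 on this scale, which covers those of Gm37347. In metastatic niche macrophages Il18bp with 24.3, Il1rn with 20.9 and Gm37347 with 19.8 led, and Il1b was among the lower genes with 8.28. Ranges over libraries overlapped among the leading 3 genes of metastatic general and of metastatic niche macrophages, and between Il1b and Il1rn in normal general macrophages, so their order does not exceed the spread, whereas Gm37347 lay above all others in normal general macrophages. Il1b stood in the second place of the 10 in normal general macrophages and had a lower mean than its antagonist in both niche groups, where the ranges of both genes overlapped.

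Other genes of the pathway were taken from lists fixed by function. In edgeR, 0 of the 62 tested genes of the 4 lists passed in any of the 5 tests, and limma-voom also called 0. DESeq2 called 9 in the normal comparison of the populations (17.5% of all genes), 0 in the metastatic one (5.08%), 1 with metastasis in general (1.55%) and 8 in niche macrophages (10.6%), and 3 for the difference of effects (4.6%). At an unadjusted p under 0.05 edgeR had 9, 2, 3, 9 and 3 of the 62 genes in the same order, beside 19%, 8.6%, 5.12%, 12.7% and 7.89% of all tested genes. These counts pool 4 lists that differ from each other.

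Of 18 listed symbols of other interleukin 1 family ligands and receptors 7 were tested. Some genes were listed under an old and a new symbol, such as Il1f9 and Il36g, so the symbols outnumber the genes. In edgeR 0 were called, while DESeq2 called Il1f9 in the normal comparison of the populations, 1 of 7 beside 17.5% of all genes. Il1f9, the gene of interleukin 36γ, was at 108 ± 30.1 CPM in normal general and 18.8 ± 16.2 CPM in normal niche macrophages (SD, n = 3 each), a log2 difference of -2.52 with an adjusted p of 0.210 in edgeR and 0.0360 in DESeq2. In marrow with metastasis its level was 67.2 ± 21.1 and 15.4 ± 7.79 CPM, a log2 difference of -2.12 with an edgeR adjusted p of 0.554. Il18rap, the accessory chain of the interleukin 18 receptor, had the highest mean of the list at 189 CPM, with a log2 difference of -0.74 from general to niche macrophages of normal marrow (edgeR adjusted p 0.255).

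Of inflammasome sensors, adaptors and pyroptosis genes 21 of 23 were tested, and edgeR called 0. DESeq2 called 5 in the normal comparison of the populations (Gbp2, Gbp5, Nlrp12, Nlrp1a and Panx1; 17.5% of all genes), 5 with metastasis in niche macrophages (Gbp2, Nlrp12, Nlrp1a, Nlrp1b and Panx1; 10.6% of all genes) and 3 for the difference of effects (Gbp2, Nlrp12 and Panx1; 4.6% of all genes). At an unadjusted p under 0.05 edgeR had 5 of the 21 in the normal comparison of the populations (19% of all tested genes), 5 with metastasis in niche macrophages (12.7%) and 2 for the difference of effects (7.89%). Nlrp12, an NLR family member, was at 0.10 to 0.243 CPM (2 to 4 counts) in every normal niche library and at 2.55 to 77.2 CPM in normal general macrophages, with an adjusted p of 0.0897 in edgeR and 7.37e-06 in DESeq2. Gbp2, a guanylate-binding protein gene inducible by interferon, was at 0.301 to 0.568 CPM in normal niche and 13.5 to 19.5 CPM in normal general macrophages, with an adjusted p of 0.141 in edgeR and 3.55e-06 in DESeq2. In metastatic niche macrophages Gbp2 was at 4.73 to 53.7 CPM, above every normal niche library, with an adjusted p of 0.346 in edgeR and 2.50e-07 in DESeq2 for the difference. The most abundant gene of the list, Txnip, the thioredoxin-interacting protein, had group means from 262 to 295 CPM.

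Of genes that carry the receptor signal to NF-kappaB all 24 were tested, and edgeR called 0. DESeq2 called Tab1 and Tab3 in the normal comparison of the populations, 2 of 24 beside 17.5% of all genes. With metastasis in niche macrophages DESeq2 called Nfkb1 and Nfkbib, 2 of 24 beside 10.6%. Tab3, an adaptor of the kinase TAK1, was at 26.4 ± 7.33 CPM in normal general and 105 ± 43.4 CPM in normal niche macrophages (SD, n = 3 each), a log2 difference of 2.00 with an adjusted p of 0.126 in edgeR and 0.00419 in DESeq2. Nfkb1, a subunit of NF-kappaB, was at 192.5 ± 62.7 CPM in normal niche and 71.3 ± 33.9 CPM in metastatic niche macrophages (SD, n = 3 each), a log2 difference of -1.43 with an adjusted p of 0.381 in edgeR and 0.0471 in DESeq2. Tab2, a related adaptor, had the highest mean of the list at 164 CPM.

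Of cytokines and other genes inducible by interleukin 1 or NF-kappaB, 10 of 17 were tested, and edgeR called 0. DESeq2 called 1 of 10 in each of the comparisons that follow. This was Sod2 in the normal comparison of the populations (17.5% of all genes). With metastasis it was Ccl2 in general (1.55% of all genes) and in niche macrophages (10.6% of all genes). Sod2, the mitochondrial superoxide dismutase, was at 36.4 ± 9.74 CPM in normal general and 119 ± 25.6 CPM in normal niche macrophages (SD, n = 3 each), a log2 difference of 1.71 with an adjusted p of 0.0791 in edgeR and 1.76e-04 in DESeq2. Ccl2, a monocyte chemoattractant, held 0 to 2 counts in normal general and 176 to 464 counts in metastatic general macrophages, so that the libraries did not overlap, with an adjusted p of 0.944 in edgeR and 0.00481 in DESeq2. In niche macrophages it held 0 to 4 counts in normal and 2 to 607 counts in metastatic libraries, with an adjusted p of 0.381 in edgeR and 0.00139 in DESeq2.

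The genes whose levels over the 12 libraries were most like a member were found by the Pearson correlation of log2(CPM + 1) among 8144 genes, as a description, since the libraries share groups, depth and scaling. For Gm37347 these were Thbs1 (0.90), Ltf (0.88) and Lyz2 (0.87), of which Ltf, the gene of lactoferrin, belongs to the neutrophil list. For Il1b they were Itgb7 (0.94), Llgl1 (0.94) and Rab5b (0.93), and for Il1r2 they included Ppp1ca (0.96) and Abca7 (0.95). For Il1rn they were Cst3 (0.93), Gm42819 (0.89) and Ints12 (0.84). For Il18bp they were Jmjd1c (0.87), Slc12a7 (0.87) and Gm11346 (0.86), and for Casp1 they were Rnf24 (0.98), Ppm1f (0.96) and Eral1 (0.96). Among the 10 genes themselves the highest value was 0.83 between Casp1 and Nlrp3, which share the low libraries B and C, followed by 0.73 between Il1b and Nlrp3.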

How the data were processed

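RNA was sequenced from 12 sorted libraries, in 4 groups of 3. The authors deposited a table of expected counts per gene, of which 83.8% of values were whole within 0.01; the submitters' processing notes name STAR 2.7.3a, Partek, DESeq2 1.40.2, R 4.3.1 and the build mm10. The counter, the annotation and the strand setting were not given in the sources used here. Of 18467 symbols, 18026 matched GENCODE M21.

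Columns were matched to samples by name; the 3 niche columns of normal marrow carry numbers that differ from the titles and were used as replicates of the group only. Counts were rounded and tested with edgeR 4.0.16 (TMM, filterByExpr, glmQLFit, glmQLFTest, R 4.3.3) over 12882 genes with Benjamini-Hochberg adjustment. Replicates of a group come from different mice, per the series' design text, and depth was 13687945 to 30332417 counts. Small RNA genes took 9.99% to 27.9% of the counts. The procedure was tested on simulated data. DESeq2 1.42.0, limma-voom (limma 3.58.1), other scalings and filters, each library left out, small RNA genes removed, a replicate block and the summed counts of Gm37347 and Il1r2 were alternatives. Same-numbered samples did not deviate together (correlations from -0.0036 to 0.033), so the numbers were not used as pairs.

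The genes and lists were chosen with earlier results of these data known. The genes named were the 10 members, from each list the genes called or else the 2 with the smallest p-values, the gene with the highest mean, and the 3 genes most like each of 6 members. For Il1r2, 1 of these genes is not reported here. The floor of 3 counts covers counting error only, while SDs and SEs cover the spread between libraries. No protein sequences were used here.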

Additional observations from a re-analysis of the deposited data

How the results depend on the processing

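The lower level of Gm37347 in niche than in general macrophages of normal marrow passed in 14 of 14 alternatives, with log2 fold changes from -1.84 to -1.53 and an adjusted p of at most 0.0457, all of which share the normal general libraries with the comparison that led to its listing. In that comparison only 4 of the 10 genes were tested with at least 10 counts in every library, and 2 were called (Il1rn added), beside 325 of 4867 genes. The number of the 10 genes called there was 4 with DESeq2 (Il1b, Il1rn and Il18 added) and 1 to 2 when 1 library was left out. Leaving out library A of the normal niche group added Nlrp3, beside 307 of 14250 genes called. With DESeq2 2167 of 12354 genes were called there. With metastasis in niche macrophages the number of the 10 genes called was 1 with DESeq2 (Gm37347). Counts over all genes also depended on the tool: DESeq2 called 2167, 628, 205, 1326 and 562 genes in the 5 tests, edgeR 318, 107, 2, 1 and 0, and limma-voom 186, 178, 23, 11 and 0. In the normal comparison of the populations edgeR called 163 genes when fitted on those libraries alone and 176 to 402 with 1 library left out, the lowest counts (176, 178 and 184) without general normal library 1, 2 or 3. For metastatic niche against normal niche it called 0 to 66, with 66 without library B and 26 without library C. Scaling by library size alone moved the median of all genes from 0.04 to 0.29 between the populations in metastatic marrow and from -0.17 to 0.06 with metastasis in niche macrophages.

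A fit with the replicate block was possible for 2 comparisons, on the 9 libraries that share numbers. Between the populations in metastatic marrow the replicate block called 1 of the 10 genes, Il1b (log2 fold change -1.87, adjusted p 0.0381), and 117 genes in all against 104 without it, and Il18 turned to -0.058. With metastasis in general macrophages both fits called 3 genes. The correlations of the deviations gave no sign that same-numbered samples are paired, which does not exclude shared mice.

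Signs that turned belonged to genes that did not pass. With limma-voom these were Il1r1 (-1.83) between the populations in normal marrow, Il18 (-0.82) in metastatic marrow, Il1rap (0.0155) with metastasis in general macrophages, and Il1b (1.23), Il1rn (-0.16), Il1r1 (2.58) and Nlrp3 (3.18) in niche macrophages. Library size alone gave Il1r1 0.12 in the last comparison. With the counts of Gm37347 and Il1r2 added, the pair gave -0.96 there, -1.66 between the populations in normal marrow and -1.52 with metastasis in general macrophages. Leaving out 1 library gave the widest ranges where a library stood apart. Between the populations in normal marrow Il1r1 ran from -7.44 (without niche library A) to 2.12. In metastatic marrow Il1rn ran from -0.34 to 0.59, turning without niche library 1 or general library 3, and Casp1 from -0.0909 (without niche library 1) to 0.74. With metastasis in general macrophages Il1rap ran from -0.36 to 0.47, turning without normal library 2 or metastatic library 3, and Il18bp from -2.05 to 1.13 (without normal library 3). In niche macrophages Il1rn ran from -0.50 to 0.42, turning without metastatic library 1, B or C, Il18bp from -0.0601 (without metastatic library 1) to 1.29, and Il1r1 from -1.33 to 8.50, turning without metastatic library 2 or A. Leaving out A also turned Il1b, whose values ran from -1.28 to 0.0055, Il1r2, whose values ran from -0.16 to 1.95, and Nlrp3, from -1.29 to 6.34. For the difference of effects Il18bp ran from -0.20 (without general normal library 3) to 3.07 and Nlrp3 from -0.0743 to 7.56, turning without niche metastatic library 2, B or C. The causes were not tested.

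Without small RNA genes the mean levels that moved by more than 1 SD were Il1b at 201.9 CPM in normal general and 20.0 in metastatic niche macrophages, Il1rn at 135 in normal niche, Il1r2 at 40.4 in metastatic niche, Gm37347 at 632 in normal general and 187 in normal niche, and Casp1 at 19.5 and Nlrp3 at 38.6 in metastatic general macrophages. A level of fewer than 3 counts cannot be told from 0 at this depth.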
